A study of Mus musculus with 12 samples.

Results

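The genes described here write, copy and remove DNA methylation. They are the methyltransferase genes Dnmt1, Dnmt3a, Dnmt3b and Dnmt3l, the cofactor gene Uhrf1, the dioxygenase genes Tet1, Tet2 and Tet3, and the glycosylase gene Tdg. The members were chosen by symbol in both RNA-seq tables, and all 9 were found among 21905 protein-coding genes on the assembled mouse chromosomes, with 88 annotated transcripts between them. Peaks were counted for a member when they overlapped its gene body, the 1 kb upstream of it or the 5 kb downstream of it in the genome build mm10.

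In mammals most methylated cytosines lie in CpG dinucleotides. Dnmt3a and Dnmt3b set methylation on unmethylated DNA, Dnmt3l has no catalytic activity of its own and stimulates them, and Dnmt1 copies the pattern to the new strand after replication, guided by Uhrf1, which binds hemimethylated CpGs. The TET enzymes oxidise methylated cytosine, and Tdg excises the more oxidised products, which base excision repair then replaces with unmodified cytosine.

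The study compared mouse embryonic stem cells (mESCs) of the line ES-E14, also called E14TG2a, with NIH-3T3 cells (NIH3T3 cells in the following), an established line of mouse embryonic fibroblasts, both grown in the same serum and LIF medium without other treatment. ChIP-seq gave 1 library each for Ctr9, a subunit of the Paf1 elongation complex (Paf1C), and for H3K27ac, a histone mark of active promoters and enhancers, in both cell types. In mESCs, 1 library each was also made for the pausing factor NELFA and for RNA polymerase II (RNAPII) phosphorylated at Ser5 of its tail (Ser5p, enriched near starts) or at Ser2 (Ser2p, enriched towards gene ends). RNA-seq gave 1 library per cell type, so every value below comes from a single library and no test across replicates was possible. Ctr9 was precipitated through a GFP tag that had been knocked into its own gene in both lines, in pools of sorted cells rather than in clones, and NELFA through a GFP tag in a further mESC line, which by the study's account also served for the Ser5p library. The 3 input libraries were not analysed here.

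Transcript levels were deposited as TPM, the abundance of a transcript for its length, scaled to a sum of 1000000 per library. The RNA-seq libraries held 26400407 estimated counts in mESCs and 28849497 in NIH3T3 cells, while the depth of the ChIP-seq libraries is unknown because the peak lists hold no read counts. The peak lists held between 1673 (Ser2p) and 44738 (Ctr9 in mESCs) peaks. Of 10 markers of mESCs, 10 were at least 2-fold higher in the mESC library, with a summed TPM of 6912 against 27.4 in NIH3T3 cells, where 6 of them were at 0. All 10 fibroblast markers were at least 2-fold higher in NIH3T3 cells, with a summed TPM of 4795. Their sum in mESCs was 248.9, mostly from Vim (162) and Fn1 (75.7), while Col3a1 was at 0 and Col1a1 was at 0.203.

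The promoters shown here are the 250 bases before 7 starts at which the RNA or the peaks differed between the cell types or between starts of the same gene. They were taken from the RefSeq promoters of GRCm38.p6 and are written 5′ to 3′ on the strand of the gene in lower case, with each CG dinucleotide, the target of these enzymes, in capitals. CG reads the same on both strands, and its matches cannot overlap one another. Of 32851 RefSeq promoters cut to the same 250 bases, 92.1% held at least 1 CG and the median was 6. For Dnmt1 the start at the upstream end of the gene (that of transcript Dnmt1-202, chr9:20959889-20960138, minus strand) is shown beside the start 6909 bps further in (Dnmt1-201, chr9:20952980-20953229, minus strand), where the NELFA and Ser5p peaks lay.
Dnmt1-202: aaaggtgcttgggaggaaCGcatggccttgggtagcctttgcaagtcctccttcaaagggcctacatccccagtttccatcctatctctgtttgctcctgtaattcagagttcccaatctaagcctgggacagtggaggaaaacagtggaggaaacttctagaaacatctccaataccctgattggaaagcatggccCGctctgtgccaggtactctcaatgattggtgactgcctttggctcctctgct
Dnmt1-201: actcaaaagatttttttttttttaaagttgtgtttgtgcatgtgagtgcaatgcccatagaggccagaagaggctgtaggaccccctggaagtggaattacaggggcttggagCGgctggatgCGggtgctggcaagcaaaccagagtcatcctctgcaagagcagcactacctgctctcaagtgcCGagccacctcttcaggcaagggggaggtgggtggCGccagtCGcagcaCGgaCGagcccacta
The upstream Dnmt1 start had 2 CGs, which 81.2% of all promoters reached, and the printed inner start had 7, which 46.3% reached. A further inner Dnmt1 start, at 7265 bps and not printed, had 26 CGs (9.59%) in its 250 bases. Those bases overlapped H3K27ac peaks in both cell types and the Ser5p peak in mESCs. The RNA from that start was low, at 1.25 TPM in mESCs and 0.429 in NIH3T3 cells. The inner start of Dnmt3a (Dnmt3a-205, chr12:3891494-3891743, plus strand), the start of Dnmt3b (chr2:153649199-153649448, plus strand) and the inner start of Dnmt3l (Dnmt3l-201, chr10:78049592-78049841, plus strand) are shown because the RNA from them was higher in mESCs.
Dnmt3a-205: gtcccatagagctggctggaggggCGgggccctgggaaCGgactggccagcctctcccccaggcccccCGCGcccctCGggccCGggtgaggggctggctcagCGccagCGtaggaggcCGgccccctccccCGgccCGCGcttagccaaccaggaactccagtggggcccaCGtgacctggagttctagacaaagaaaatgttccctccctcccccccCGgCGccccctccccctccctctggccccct
Dnmt3b: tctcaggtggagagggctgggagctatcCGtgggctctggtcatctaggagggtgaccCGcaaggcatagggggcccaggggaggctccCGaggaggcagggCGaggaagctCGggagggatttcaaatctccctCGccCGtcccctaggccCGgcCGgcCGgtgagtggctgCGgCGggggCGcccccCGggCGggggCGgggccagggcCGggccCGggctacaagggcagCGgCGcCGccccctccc
Dnmt3l-201: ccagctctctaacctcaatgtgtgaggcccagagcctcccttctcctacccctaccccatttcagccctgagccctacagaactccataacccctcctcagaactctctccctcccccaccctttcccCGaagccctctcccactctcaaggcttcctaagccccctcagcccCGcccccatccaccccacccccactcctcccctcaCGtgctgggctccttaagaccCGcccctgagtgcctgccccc
Dnmt3a-205 had 15 CGs (27.3% of all promoters had at least as many) and Dnmt3b had 21 (16.3%), whereas Dnmt3l-201 had 4 (62.2%). The last 2 are those of the main starts of Tet2 (chr3:133544391-133544640, minus strand) and Tet3 (Tet3-202, chr6:83441679-83441928, minus strand). The 250 bases of Tet2 overlapped H3K27ac peaks in both cell types, and those of Tet3 overlapped one only in NIH3T3 cells.
Tet2: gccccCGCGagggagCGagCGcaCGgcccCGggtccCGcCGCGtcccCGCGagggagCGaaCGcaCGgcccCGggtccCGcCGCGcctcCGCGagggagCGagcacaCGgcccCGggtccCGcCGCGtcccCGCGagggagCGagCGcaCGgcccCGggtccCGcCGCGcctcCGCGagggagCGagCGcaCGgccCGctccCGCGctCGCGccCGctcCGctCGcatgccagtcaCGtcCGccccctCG
Tet3-202: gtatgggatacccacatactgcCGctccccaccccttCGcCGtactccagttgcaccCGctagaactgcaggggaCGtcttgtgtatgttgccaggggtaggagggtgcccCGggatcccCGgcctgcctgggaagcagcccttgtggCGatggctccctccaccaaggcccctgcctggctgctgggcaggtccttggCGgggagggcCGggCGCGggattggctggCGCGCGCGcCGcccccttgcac
The Tet2 promoter is a run of near repeats with 51 CGs, which 0.067% of all promoters reached, and that of Tet3 had 17 (23.5%).

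Among the 9 genes, 5 were at least 2-fold higher in mESCs (Dnmt3b, Dnmt3l, Uhrf1, Tet1 and Tet2), 1 was at least 2-fold higher in NIH3T3 cells (Tet3) and 3 stayed within 2-fold (Dnmt1, Dnmt3a and Tdg). The level of a gene is the TPM of its highest transcript in each library, and the ratio is that of TPM + 1, which understates the change of low genes. Of 12379 protein-coding genes with a TPM of at least 1 in either library, 23.8% were at least 2-fold higher in mESCs and 20.0% in NIH3T3 cells. The median log2 ratio of mESCs over NIH3T3 cells was 1.10 over the members and 0.13 over all genes tested. In bulk libraries a level per cell and the share of cells with the RNA cannot be told apart.

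**Figure D1:**
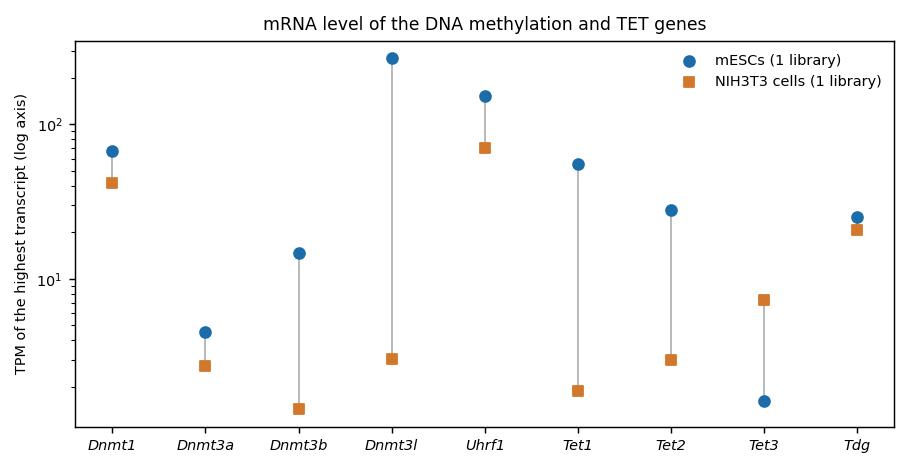
TPM of the highest transcript of each gene (log axis) in mESCs (circles) and NIH3T3 cells (squares), 1 library each, joined by a grey line. Dnmt3l has the longest line (268 against 3.05) and Tet3 is the gene whose square lies above its circle (7.30 against 1.61).

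The maintenance genes Dnmt1 and Uhrf1 were expressed in both lines. Dnmt1 (ENSMUSG00000004099.16, chr9:20907209-20959888, minus strand) measured 66.8 TPM in mESCs and 41.7 in NIH3T3 cells. Uhrf1 (ENSMUSG00000001228.14, chr17:56303321-56323486, plus strand) had 152 in mESCs and 70.2 in NIH3T3 cells. Dnmt1 was 1.59-fold and Uhrf1 2.15-fold higher in mESCs, the latter just past the 2-fold limit. From the estimated counts of all transcripts, 15053 for Uhrf1 in mESCs and 7644 in NIH3T3 cells, the log2 ratio scaled to the library totals was 1.11, with a 95% exact (Clopper-Pearson) interval of 1.07 to 1.15. Such an interval covers counting error only and not the spread between cultures.

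Dnmt3l and Dnmt3b were far higher in mESCs, whereas Dnmt3a was not. Dnmt3l (ENSMUSG00000000730.13, chr10:78041947-78063622, plus strand) measured 268 TPM in mESCs and 3.05 in NIH3T3 cells, a log2 ratio of 6.06 that 60 of the 12379 genes reached, Dnmt3l included. In mESCs it stood above Uhrf1, the next member, and at or above 98.2% of the protein-coding genes with a TPM above 0. Dnmt3b (ENSMUSG00000027478.15, chr2:153649450-153687730, plus strand) had 14.8 in mESCs and 1.43 in NIH3T3 cells, a log2 ratio of 2.70. Summed over its transcripts, Dnmt3b reached 55.3 TPM in mESCs against 3.19 in NIH3T3 cells, a log2 ratio of 3.75.

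Dnmt3a (ENSMUSG00000020661.15, chr12:3806007-3914443, plus strand) was low in both lines, at 4.51 TPM in mESCs against 2.73 in NIH3T3 cells. Its log2 ratio of 0.56 turned to the other side with the estimated counts, 853 in mESCs and 1110 in NIH3T3 cells, whose log2 ratio scaled to the library totals was -0.25 (95% exact interval -0.38 to -0.12). The highest Dnmt3a transcript also differed in length, with 2328 bases for Dnmt3a-205 in mESCs and 8737 bases for Dnmt3a-218 in NIH3T3 cells.

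The TET genes split in direction. Tet1 (ENSMUSG00000047146.17, chr10:62804570-62908996, minus strand) measured 55.4 TPM in mESCs and 1.88 in NIH3T3 cells, a log2 ratio of 4.29. Tet2 (ENSMUSG00000040943.12, chr3:133463679-133545139, minus strand) had 28.0 in mESCs and 2.96 in NIH3T3 cells, a log2 ratio of 2.87. Tet3 (ENSMUSG00000034832.15, chr6:83362373-83459084, minus strand) had 1.61 in mESCs and 7.30 in NIH3T3 cells, a log2 ratio of -1.67. In mESCs the TPM thus fell from Tet1 over Tet2 to Tet3, and in NIH3T3 cells Tet3 stood first. Summed over transcripts, the TET genes reached 116, 55.4 and 2.12 TPM in mESCs and 3.13, 5.61 and 8.87 TPM in NIH3T3 cells, in the order Tet1, Tet2 and Tet3.

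Tdg (ENSMUSG00000034674.18, chr10:82629828-82650799, plus strand) had the ratio closest to 1 of the members, at 25.3 TPM in mESCs against 20.8 in NIH3T3 cells. Its log2 ratio was 0.27, against the median of 0.13 over all genes tested. With 1875 and 1598 estimated counts, the log2 ratio scaled to the library totals was 0.36 (95% exact interval 0.26 to 0.46).

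The transcript with the highest TPM differed between the cell types for 5 of the 9 genes, Dnmt1, Dnmt3a, Dnmt3b, Dnmt3l and Tet2. With estimated counts it differed for 4, as Dnmt3a-218 then stood first in both lines (469 counts in mESCs and 568 in NIH3T3 cells). The share over all genes is not given here, so these counts are not read as a trait of the members. The quantification splits reads between transcripts by the sets of transcripts that share their words, and a transcript with few words of its own is split off less directly. For Dnmt3b each of the 6 isoforms with a TPM of at least 1 had 0 words of 31 bases of its own, and their split is not described here. Dnmt1-201 and Dnmt1-202 had 163 and 154 such words, and Dnmt3a-205 had 16.

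Dnmt3l changed its start most. The inner starts at 7895 to 8012 bps gave 268 TPM in mESCs and 0.713 in NIH3T3 cells, and the upstream starts within 340 bps of the gene start gave 65.1 TPM in mESCs and 0 in NIH3T3 cells. The transcripts from both, Dnmt3l-201 and Dnmt3l-205, have the same coding length of 1263 bases. In NIH3T3 cells 86.2% of the small Dnmt3l sum came from starts at 12888 to 13388 bps, with 4.45 TPM from 77 estimated counts, among them the short Dnmt3l-203 with a coding length of 378 bases. NIH3T3 cells held 0 counts of Dnmt3l-201 and Dnmt3l-205. Dnmt3l-208, from the start at 8012 bps and also with a coding length of 1263 bases, held 25 estimated counts there.

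Dnmt3a has a long protein, with a coding length of 2724 bases in Dnmt3a-218, and a shorter one known as Dnmt3a2 that starts inside the gene, with 2067 bases in Dnmt3a-205. The long-form transcript Dnmt3a-201 had 0.472 TPM in mESCs and 2.08 in NIH3T3 cells, and Dnmt3a-218 had 2.42 and 2.73. All starts at 1023 to 1153 bps, which include the short Dnmt3a-204 with 2.78 and 1.32 TPM, held 627 estimated counts in mESCs and 1082 in NIH3T3 cells. The inner starts at 85721 to 85737 bps gave 4.51 TPM (210 estimated counts) in mESCs and 0.230 TPM (12 estimated counts) in NIH3T3 cells. The long form was thus the lower in mESCs and the inner start the higher. This inner start held 35.6% of the Dnmt3a TPM in mESCs and 2.52% in NIH3T3 cells. In estimated counts, which are not scaled by transcript length, its shares were 24.6% and 1.08%.

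For Dnmt1 the upstream start gave 59.0 TPM in mESCs and 41.7 in NIH3T3 cells, and the starts between 6909 and 7283 bps gave 126 and 68.9. The upstream start held 44.3% of the estimated counts of Dnmt1 in mESCs and 51.5% in NIH3T3 cells. Dnmt1-202 from the upstream start has a coding length of 4503 bases, against 4860 bases in Dnmt1-201. An upstream promoter of Dnmt1 that gives a shorter protein is known from oocytes, and the transcript tables do not show whether reads fell on the first exon of Dnmt1-202.

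Tet1 RNA in mESCs came from several starts. The start at 9878 bps (Tet1-206, coding length 6117 bases) gave 55.4 TPM, the one at 16010 bps 33.3 TPM and the one at 28982 bps (Tet1-201, coding length 6021 bases) 11.5 TPM. The same starts gave 1.88, 0 and 0.072 TPM in NIH3T3 cells. In estimated counts, Tet1-206 and Tet1-201 held 15141 and 3065 in mESCs, and the transcript from 16010 bps, which is 553 bases long, held 254. Tet2 started mostly at 749 to 853 bps, with 40.5 TPM in mESCs and 2.96 in NIH3T3 cells. Tet3 started mostly at 17406 to 17452 bps, with 1.61 TPM in mESCs and 7.32 in NIH3T3 cells, and its longer coding transcript Tet3-203 at 2692 bps gave 0.184 and 1.55 TPM.

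**Figure D2:**
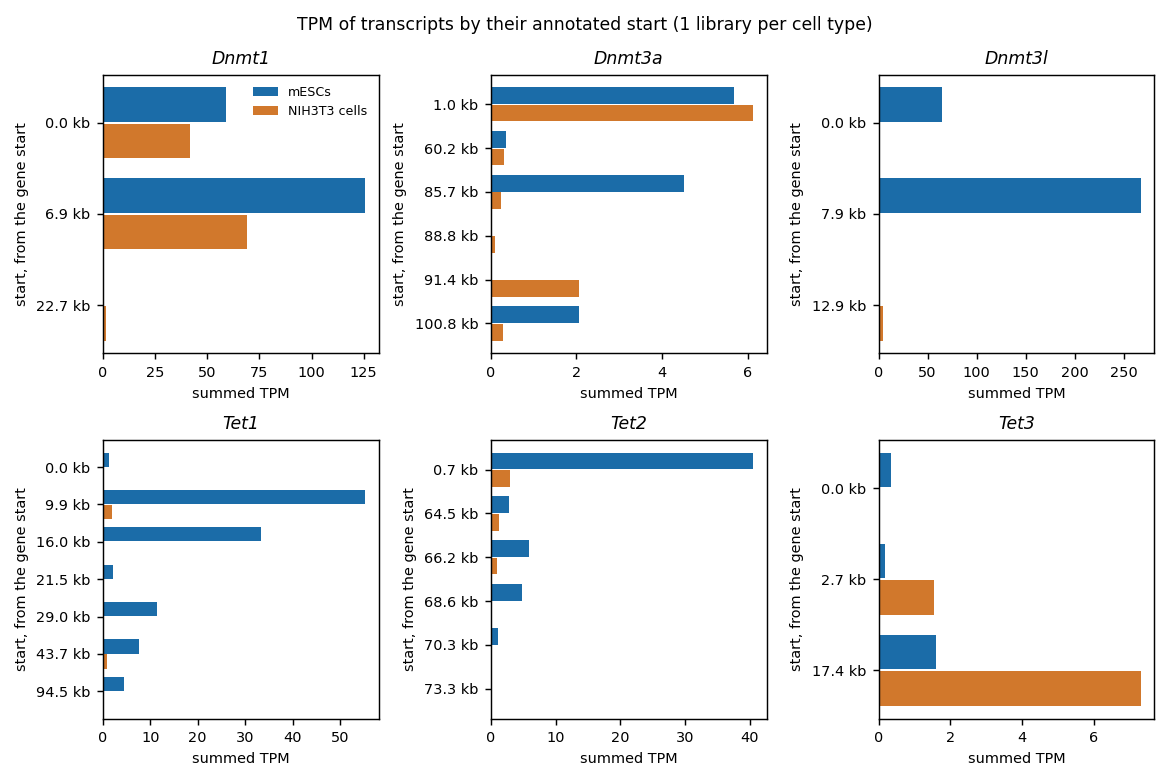
Summed TPM (horizontal axis, a separate scale in each panel) of the transcripts of 6 genes by annotated start in kb from the gene start, in mESCs (blue) and NIH3T3 cells (orange), 1 library each, for starts with at least 1% of a gene's TPM in either library. The Dnmt3a start at 85721 bps and the Dnmt3l start at 7895 bps are long in blue and short in orange, while the Tet3 start at 17406 bps is the reverse.

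Antisense genes lie over several members, and whether the quantification used the strand of the reads is not given in the sources used here. Aire starts 1663 bps into Dnmt3l on the opposite strand and runs out past the Dnmt3l start. It had 13.9 TPM in mESCs and 0.040 in NIH3T3 cells. Glt8d2, whose end overlaps that of Tdg, had 0 TPM in mESCs and 1.74 in NIH3T3 cells. Dnmt3aos lies antisense within Dnmt3a, while Dnmt3bos and Gm42567 start on the opposite strand 836 bps into Dnmt3b and 42 bps into Tet2. The small non-coding genes Mir7081 and Gm26479 and the predicted gene Gm48353 lie on the same strand within Dnmt1 and Tet1. Their part in the levels was not tested.

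Peaks were then counted at the members. In mESCs, Ctr9 peaks were found at 7 members, against 44.1% of all protein-coding genes and 87.4% of those with a TPM of at least 10, and H3K27ac peaks at 6 members, against 43.1% and 86.2%. NELFA peaks were found at 2 members (10.4% and 24.8%), Ser5p peaks at 4 (12.8% and 30.6%) and Ser2p peaks at 2 (6.99% and 16.5%). In NIH3T3 cells Ctr9 peaks were found at 4 members (25.8% and 56.9%) and H3K27ac peaks at 9 (54.7% and 97.4%). The counts for Ctr9 and H3K27ac in mESCs thus lay between the shares of all and of well-expressed genes. A list with no peak says only that none passed the authors' threshold in that library. When both cell types were cut to the same number of peaks per mark, the counts for Ctr9 stayed at 7 and 4, and those for H3K27ac were 6 in mESCs and 7 in NIH3T3 cells.

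The members without any peak in the 5 mESC lists were Dnmt3a and Dnmt3b. Dnmt3b had a TPM of 14.8 in mESCs and still had neither a Ctr9 nor an H3K27ac peak there, which 87.4% and 86.2% of genes at or above 10 TPM had. In NIH3T3 cells, where its TPM was 1.43, Dnmt3b had 1 H3K27ac peak with a fold enrichment of 5.90. The summit lay 106 bps into the gene in a UTR exon. This peak began at chr2:153649447 and so met only the very end of the Dnmt3b promoter printed above, which stops at 153649448. Dnmt3a had 1 peak in all lists, an intronic H3K27ac peak in NIH3T3 cells 19306 bps into the gene (fold enrichment 5.21). No peak of any list lay at the inner Dnmt3a start.

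At Dnmt1 the peaks near starts lay at the inner ones. The NELFA summit (fold enrichment 7.40) and the Ser5p summit (5.69) in mESCs were 6800 and 6807 bps into the gene, at bases 142 and 149 of the 250 printed above for Dnmt1-201. An H3K27ac peak followed in each cell type, with summits at 7458 bps (fold enrichment 3.22) in mESCs and 7567 bps (15.2) in NIH3T3 cells, both in a UTR exon. None of the 7 lists had a peak over the 250 bases before the upstream Dnmt1 start. Fold enrichments are not compared between libraries, since each depends on its own background and depth.

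Ctr9 at Dnmt1 lay towards the gene end. In mESCs there were 22 peaks, 6 of them with summits past the gene end, and they covered 2.82% of the gene body before its midpoint and 23.5% after it. The strongest (fold enrichment 7.31) had its summit 4472 bps past the end and 4114 bps from the start of Eif3g. In NIH3T3 cells 7 peaks were found, 4 of them past the end, with the strongest (8.14) 5077 bps past it, and they covered 0% before the midpoint and 6.15% after it. The end of Dnmt1 was thus occupied in both cell types, with more peaks in mESCs.

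Uhrf1 had H3K27ac, Ser5p and Ctr9 peaks at its start in mESCs, with summits 238, 759 and 639 bps into the gene and fold enrichments of 5.35, 4.60 and 5.42. In NIH3T3 cells the start held H3K27ac (468 bps, 11.0) and Ctr9 (727 bps, 2.90). Ctr9 peaks covered 49.7% of the Uhrf1 body in mESCs and 3.77% in NIH3T3 cells. The strongest Ctr9 and H3K27ac peaks of both lines lay past the end of Uhrf1, near the start of Kdm4b, a histone demethylase gene that begins 2576 bps past the end of Uhrf1 and had 14.9 TPM in mESCs and 9.82 in NIH3T3 cells. The single Ser2p peak of Uhrf1 (fold enrichment 5.84) had its summit 300 bps from the Kdm4b start, and so the count of members with Ser2p was 1 once peaks within 1 kb of another coding gene's start were left out.

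Dnmt3l in mESCs held 17 Ctr9 peaks and 1 H3K27ac peak, and no NELFA, Ser5p or Ser2p peak despite a TPM of 268. The H3K27ac summit (fold enrichment 4.11) and the first Ctr9 summit (3.82) lay 7137 and 7109 bps into the gene, upstream of the inner start. The H3K27ac peak ended at chr10:78049620, within the first bases of the printed Dnmt3l-201 promoter, which begins at 78049592. Ctr9 covered 16.0% of Dnmt3l before its midpoint and 72.8% after it, and its strongest peak (11.1) lay past the end, 186 bps from a transcript start of Icosl. In NIH3T3 cells Dnmt3l had no Ctr9 peak and 1 H3K27ac peak at 13060 bps (fold enrichment 6.37), over the 250 bases before the start at 13388 bps. The H3K27ac peaks of the cell types thus lay at different Dnmt3l starts, and at each of them the RNA of that start was the higher in the same cell type. At 13388 bps this rested on few counts. Dnmt3l-203 had 3.05 TPM from 69 estimated counts in NIH3T3 cells, and Dnmt3l-202 had 0.973 TPM from 29 in mESCs. Dnmt3l-203 had only 27 words of 31 bases of its own.

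**Figure D3:**
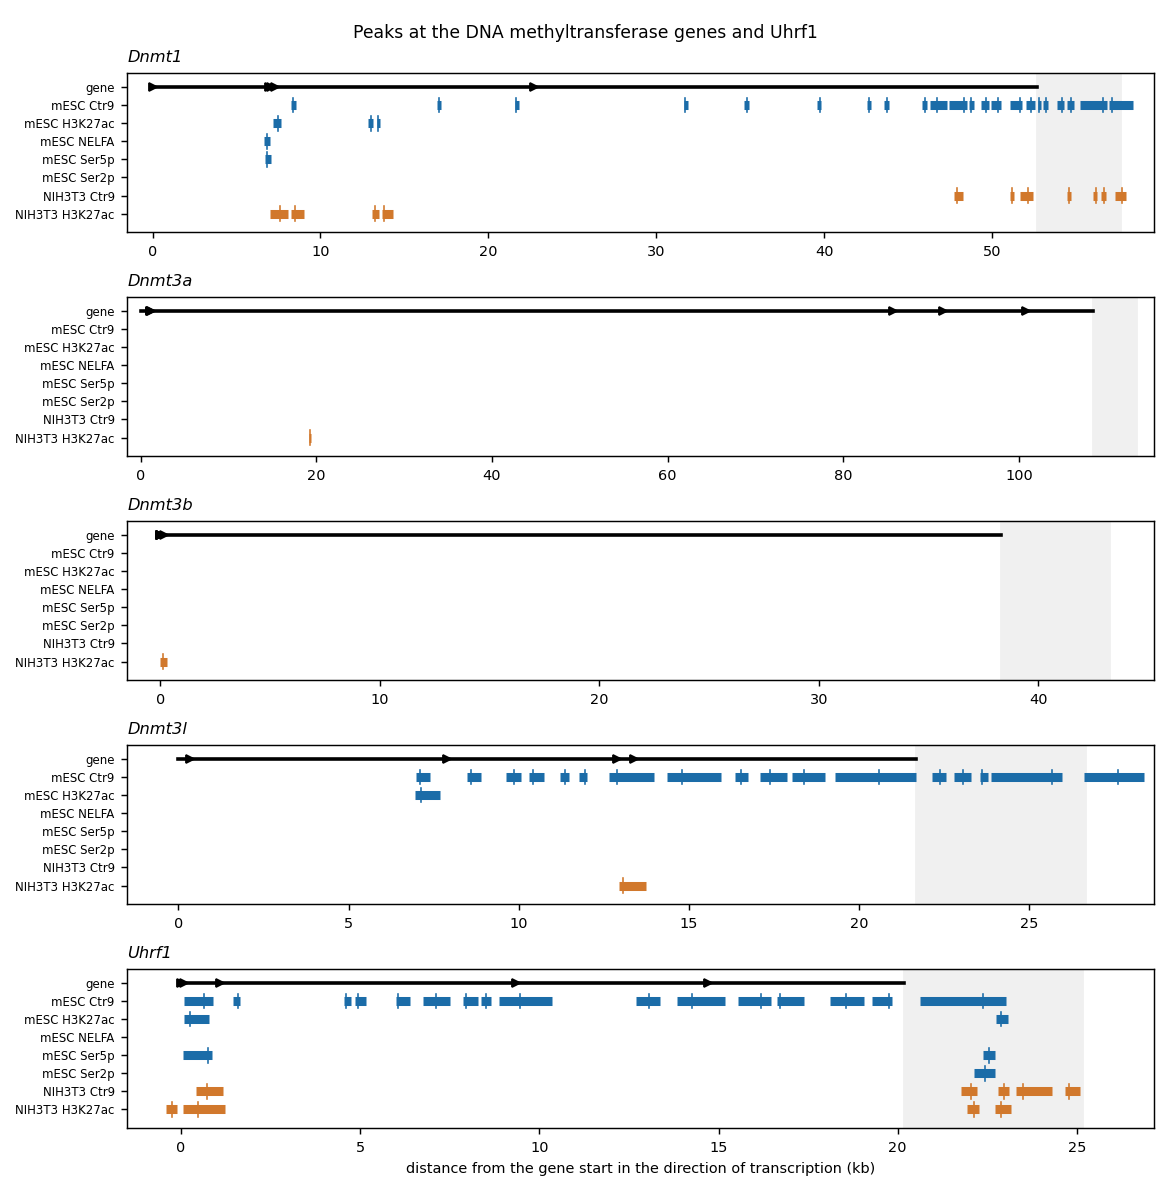
Peaks of the 7 lists (bars, with a thin line at each summit) at the methyltransferase genes and Uhrf1, by distance from the gene start in kb, in mESCs (blue) and NIH3T3 cells (orange), with triangles for starts of transcripts of at least 1 TPM and grey for the 5 kb past the gene. Dnmt3a and Dnmt3b have no blue bar, and the Dnmt1 Ctr9 bars gather at its end.

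Tet1 was the most widely covered member. Ctr9 gave 55 peaks at Tet1 in mESCs, the widest 11798 bps long, which together covered 81.0 kb or 77.6% of the gene body. Of 21905 protein-coding genes, 8 had as many kb under Ctr9 peaks in mESCs, Tet1 included. Gene length limits such a rank by kb, and Tet1 is 104.4 kb long. A rank by share of the gene body is not given here. The gene was covered to 71.1% before its midpoint and to 84.0% after it. The first Ctr9 summit lay at 10130 bps, just past the start of Tet1-206 at 9878 bps, and the strongest (fold enrichment 10.5) at 22418 bps in an intron.

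Tet1 also had the most RNAPII peaks. Ser5p gave 9 peaks between 10506 and 25013 bps, a stretch that holds the starts at 16010 and 21672 bps, and the strongest (8.26) was at 23313 bps. Ser2p gave 4 peaks, at 22493 and 23050 bps and at 1590 and 3377 bps past the gene end. The 4 H3K27ac peaks of mESCs were weak, with fold enrichments of 2.23 to 2.90. In NIH3T3 cells Tet1 had no Ctr9 peak but 6 H3K27ac peaks, with fold enrichments of 2.56 to 8.72, of which 4 lay past the midpoint of the gene at 57425 to 61736 bps, in introns. Its TPM there was 1.88.

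At Tet2 in mESCs the H3K27ac peaks flanked the main starts, with summits at 430 and 1048 bps (fold enrichments 4.69 and 3.67), and others followed at 11127 and 27713 bps. Ctr9, Ser5p and NELFA were not found at these starts but deeper in the gene. The first of the 47 Ctr9 summits lay at 10943 bps and the strongest (9.18) at 28769 bps, beside Ser5p at 10979 and 27808 bps and NELFA (4.34) at 29280 bps. All of these were intronic. In NIH3T3 cells Tet2 had H3K27ac peaks at 452 and 1017 bps (6.83 and 15.3) and no Ctr9 peak. The H3K27ac peaks at the Tet2 start were therefore shared by both cell types, while those further in and the Ctr9 cover of 31.1% of the gene body were listed in mESCs alone.

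Tet3 went the other way. In NIH3T3 cells it had 7 H3K27ac peaks, the strongest at 3154 bps (fold enrichment 12.2) and 17599 bps (10.6), near the starts of Tet3-203 and Tet3-202, and 18 Ctr9 peaks that covered 5.16 kb or 5.34% of the body. In mESCs it had no H3K27ac peak and 4 Ctr9 peaks that covered 0.524 kb or 0.54%. Of 21905 protein-coding genes, 562 had at least as many kb under Ctr9 peaks as Tet3 in NIH3T3 cells. This rank by kb is again limited by gene length, here 96.7 kb. In both cell types Ctr9 peaks ran past the end of Tet3, 6 summits in NIH3T3 cells and 2 in mESCs, towards Bola3, which is transcribed from the other side and ends 2237 bps past Tet3 (18.8 TPM in mESCs and 31.4 in NIH3T3 cells). The non-coding genes B230319C09Rik, 5430434F05Rik and Mir6374 lie within Tet3.

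Tdg had H3K27ac peaks at its start in both cell types, with summits at 120 bps (fold enrichment 6.21) in mESCs and 158 bps (29.2) in NIH3T3 cells, both in a UTR exon. A Ctr9 peak lay near the start in NIH3T3 cells (936 bps, 6.13), whereas the first Ctr9 summit in mESCs was at 2059 bps (2.91). In each cell type 3 Ctr9 peaks had summits past the gene end, within the body of Glt8d2, which runs antisense there. With nearly level RNA, Tdg had 0.95% of its body under Ctr9 peaks in mESCs and 6.51% in NIH3T3 cells.

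**Figure D4:**
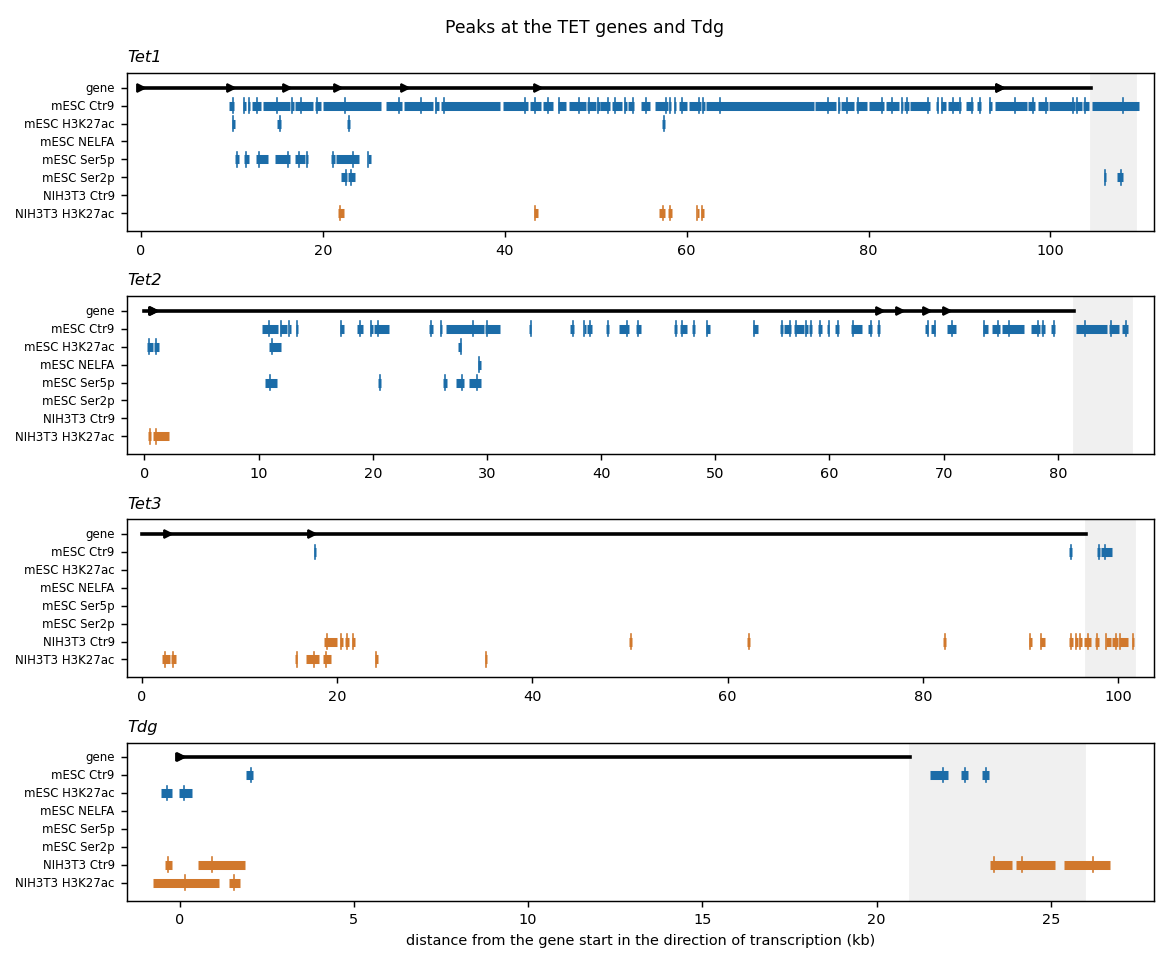
Peaks of the 7 lists (bars, with a thin line at each summit) at the TET genes and Tdg, by distance from the gene start in kb, in mESCs (blue) and NIH3T3 cells (orange), with triangles for starts of transcripts of at least 1 TPM and grey for the 5 kb past the gene. Ctr9 bars fill Tet1 and Tet2 in blue alone, while at Tet3 most bars are orange.

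Across the members, Ctr9 cover was larger in mESCs for Dnmt1, Dnmt3l, Uhrf1, Tet1 and Tet2 and larger in NIH3T3 cells for Tet3 and Tdg. It was 0 in both cell types for Dnmt3a and Dnmt3b. The windows of the members held 165 Ctr9 peaks in mESCs and 35 in NIH3T3 cells, some of them outside the gene bodies. Within the gene bodies the peaks covered 134 kb in mESCs, of which Tet1 held 81.0 kb and Tet2 25.3 kb. In NIH3T3 cells they covered 8.91 kb of gene body. The Ctr9 list of mESCs held 44738 peaks and that of NIH3T3 cells 22015, and the part of this difference in the cover was not tested.

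**Figure D5:**
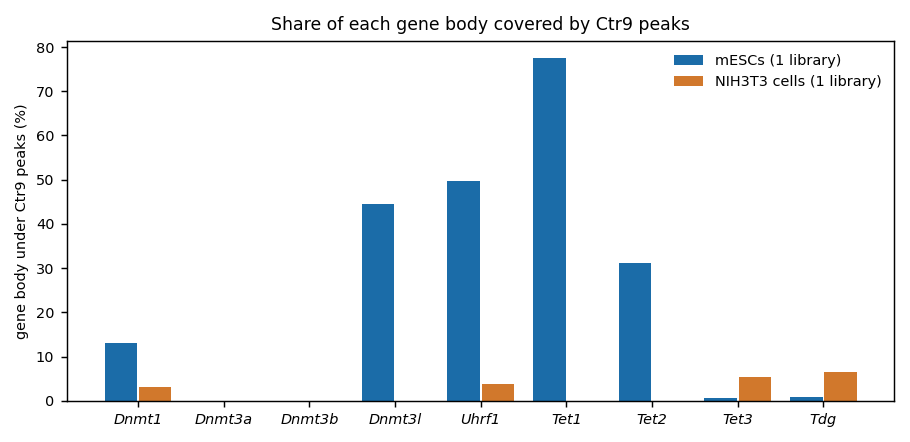
Share of each gene body (%) under Ctr9 peaks in mESCs (blue) and NIH3T3 cells (orange), 1 library each. Tet1 has 77.6% in mESCs and 0% in NIH3T3 cells, and Tet3 and Tdg are the genes with the higher bar in NIH3T3 cells.

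Of 46 other genes of the pathway, 43 had a TPM of at least 1 in either library, of which 13 were at least 2-fold higher in mESCs, 4 were at least 2-fold higher in NIH3T3 cells and 26 stayed within 2-fold. Their median log2 ratio was 0.23, and over all genes tested 23.8% were higher in mESCs and 20.0% in NIH3T3 cells, with a median of 0.13. No difference between these lists and all genes was tested. Of the partners and regulators of the methyltransferases 7 of 12 were higher in mESCs and 0 in NIH3T3 cells, with a median of 1.22. Among them were Prdm14, a regulator that represses the de novo enzymes in the naive state (17.1 TPM in mESCs and 0.018 in NIH3T3 cells), Zfp57, which guards methylation at imprinted loci (106 and 25.5), and Trim28, its corepressor (665 and 200).

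In base excision repair 4 of 11 genes were higher in mESCs and 1 in NIH3T3 cells, and the counts of this and the other small groups are to be read beside 23.8% and 20.0% of all genes. The glycosylase genes Neil2 (10.8 TPM in mESCs and 0.201 in NIH3T3 cells) and Ung (42.0 and 8.14) and the nick sensor Parp1 (275 and 56.3) were more than 4-fold higher in mESCs. In the group of methyl-CpG readers and related MBD genes the median was -0.83, with 1 of 9 higher in mESCs and 1 in NIH3T3 cells. The MBD gene Mbd3, the highest of this group in mESCs, had 36.5 and 66.0 TPM. Of 5 TET partners and CXXC proteins, 1 was higher in mESCs, and the TET partner Ogt had 41.7 and 35.4 TPM. Of 6 genes for the supply of methyl donor and 2-oxoglutarate, 2 were higher in NIH3T3 cells, and Mat2a, which makes the methyl donor, had 168 and 170 TPM.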

How the data were processed

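All 12 samples were grouped by their titles, with 1 library per group, and 9 were analysed here, without the 3 inputs. The members and gene lists were chosen with earlier results of these data known. ChIP-seq reads were mapped by the authors to mm10 (bowtie2 2.3.5.1), cleared of the ENCODE blacklist, and passed library by library to macs2 2.2.6, with a cutoff on q of 0.01. In the deposited lists, the fold enrichment (a ratio of the summit pileup over the background nearby) stands beside −log10 p, −log10 q and a score made from q. The RNA-seq tables deposited by the authors give TPM and estimated counts for each GENCODE M19 transcript, from kallisto 0.46.1. How the strand of the reads was used is not given in the sources used here.

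From these files, the gene level was the TPM of the highest transcript, as in the study's methods, and ratios were log2 of TPM + 1 (pseudocount 1), called at 2-fold among genes with a TPM of at least 1. A peak was assigned where it shared 1 bp or more with the window of a gene in GENCODE M21, and positions are summits counted from the gene start. Promoters were matched by gene symbol to RefSeq (GRCm38.p6). With 1 library per group no test was made, and 95% Clopper-Pearson intervals cover counting error of the estimated counts only. The depth was 26400407 estimated counts in mESCs and 28849497 in NIH3T3 cells, and that of the ChIP-seq libraries is unknown. All members, the pathway genes past 4-fold and the highest gene of each pathway group in mESCs were named, with neighbours that overlap a window holding a peak. Eif3g and Icosl, named as the nearest start to a peak, are exceptions picked after their values had been seen. The alternatives changed the transcript summary, pseudocount, scaling, fold, peak threshold, windows and number of peaks, and the one on neighbouring starts was chosen after seeing the data. Code was tested on simulated data and run in Python 3.11.15 with NumPy 2.4.6, pandas 2.3.3, SciPy 1.17.1 and Matplotlib 3.10.9.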

Additional observations from a re-analysis of the deposited data

How the results depend on the processing

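Of the 69 recomputed counts over members or lists, 62 stayed within 1.5 times the reported one. At 4-fold the members higher in NIH3T3 cells fell from 1 to 0, as Tet3 was within 4-fold, and the pathway genes higher in mESCs and in NIH3T3 cells numbered 5 and 0 in place of 13 and 4. With peaks within 1 kb of a transcript start, 1 member had NELFA in place of 2. With that window, with the gene body and 1 kb on each side, or without peaks within 1 kb of a transcript start of another coding gene, 1 member had Ser2p in place of 2. Over 6 settings the log2 ratio of Dnmt3a lay between -0.245 and 0.76 and that of Dnmt3b between 2.62 and 4.06, while the ratios of the other members kept their sign. No library has a replicate, so no replicate could be left out. No paired analysis was possible because each group holds 1 library. Low TPM values can rest on few reads, such as the 101 estimated counts of Dnmt3l in NIH3T3 cells. Dnmt3a, low in TPM in both lines, held 853 estimated counts in mESCs and 1110 in NIH3T3 cells. The depth behind a missing peak is unknown.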
